A study of Mus musculus with 20 samples.

Results

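The effect of the Dapk1 knockout without hormone infusion was followed at the level of single transcripts in mouse abdominal aorta. The comparison sets 5 libraries labelled KO saline (titled KONS_387, KONS_412, KONS_555, KONS_608 and KONS_627) against 5 from wild-type (WT) mice infused with saline (WTNS_369, WTNS_373, WTNS_523, WTNS_547 and WTNS_550). Values below follow that order. Members were Ensembl transcripts listed both for KO saline and for WT, taken 1 by 1 with no sums per gene and without the transcripts that the authors assembled themselves. There were 1023 such transcripts from 949 genes, out of 53800 transcripts listed anywhere in the series and 3.13% of the 32654 Ensembl transcripts listed for WT. The other 10 of the 20 libraries came from WT and KO mice given angiotensin II (Ang II), the peptide hormone that constricts arteries, at 500 ng per kg per min. They are used below only to show the same transcripts under infusion. Each library was 1 animal, and the labels give no strain, sex or age, no deleted exon and no statement of whether the deletion is confined to a cell type. For KO saline the labels disagree: a free-text description has WT, while titles and genotype entries have KO and decided the grouping here.

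Most mammalian genes are transcribed into several isoforms that differ in their first exon, in the splice sites used, in introns left in, or in the place where the transcript ends. Isoforms can encode different proteins or none. In a short-read library only fragments over the few bases or junctions that set an isoform apart tell it from the others. Fragments from shared bases could come from several isoforms. DAPK1 itself is a serine/threonine kinase controlled by calcium and calmodulin, known from cell death and autophagy and able to phosphorylate the myosin regulatory light chain. The arterial wall around it holds smooth muscle, endothelium and fibroblasts, and the fat outside a mouse aorta can be rich in mitochondria.

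The targeted gene could not be followed in KO saline, because none of the 2025 transcripts listed there belongs to Dapk1. The Dapk1 transcript ENSMUST00000077453 stood at 15.4, 9.48, 10.1, 12.6 and 12.9 FPKM (fragments per kilobase of transcript and megaread) in WT saline. It was listed at 4.51, 9.46, 0.514, 6.51 and 2.73 FPKM in KO Ang II, so it was not at 0 in the knockout group in which it was listed. In WT Ang II it stood at 9.16, 19.9, 3.96, 9.5 and 11.1 FPKM. Further Dapk1 transcripts were listed for KO Ang II and not for WT. ENSMUST00000226059 stood at 13.3 FPKM in KOAngII560 and at 0.0223 to 0.344 in the other libraries, and ENSMUST00000225632 at 0 to 2.08. The genotype of the KO saline libraries therefore rests on their labels. The value of ENSMUST00000077453 as a check depends on which exons were deleted.

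The KO saline table held a small, preselected share of transcripts, and the rule of selection is not given in the sources used here. Among the 976 members listed for every group, 80.6% had KO saline and KO Ang II means at least 2-fold apart, against 38.9% for KO saline and WT saline, 40.6% for KO Ang II and WT Ang II, and 23.7% for WT Ang II and WT saline. Over all 31007 Ensembl transcripts listed for the other groups, 14.8% were that far apart between KO Ang II and WT Ang II and 14.6% between WT Ang II and WT saline. Transcripts far apart between the 2 knockout groups were thus much more frequent in the table than for any other pair, and counts among its members do not describe the transcriptome. A further 314 Ensembl transcripts were listed for KO saline and not for WT, and stayed out.

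**Figure D1:**
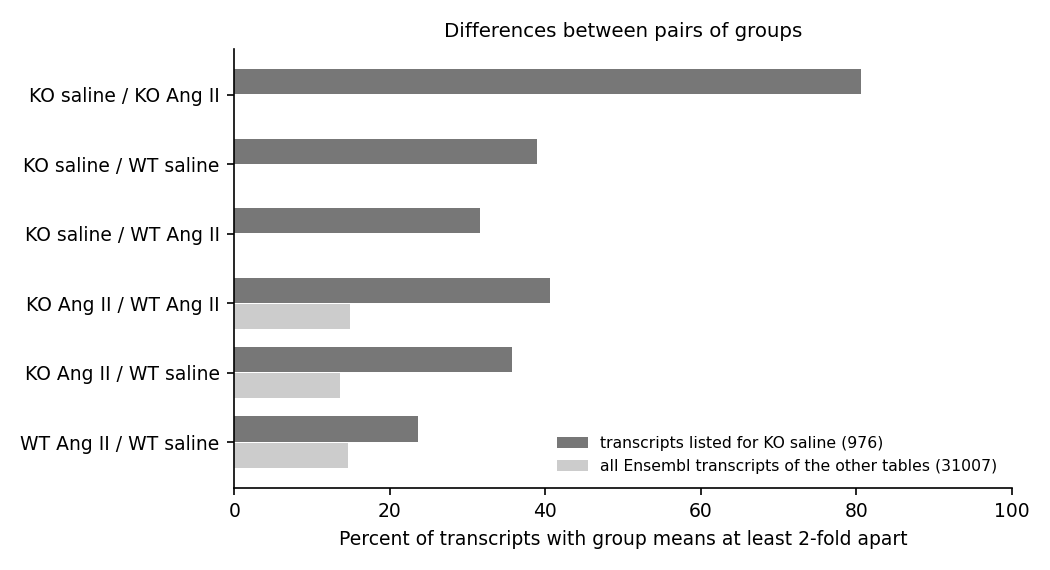
Percent of transcripts (horizontal axis) whose group means lie at least 2-fold apart, for 6 pairs of groups; dark bars are the 976 transcripts listed for KO saline and every other group, pale bars the 31007 Ensembl transcripts listed for the other groups. The dark bar of KO saline against KO Ang II reaches 80.6%, and that of KO saline against WT saline 38.9%.

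Depth, worked out from the steps between low values, was 62.8 to 67.1 megareads in WT saline and 69.7 to 74.9 megareads in KO saline, and these ranges did not overlap. Smooth muscle identity of the tissue showed in WT saline, where all 10 smooth muscle markers were listed and summed to 5881 to 13263 FPKM, but only Myh11 and Smtn were members. KO saline library KONS_627 carried 11 intestinal transcripts (defensins, Reg3b, Zg16 and Fabp2) at 0.862 to 5.14 FPKM. They were listed at 0 in every other saline library, apart from up to 0.271 FPKM in KONS_412, and appeared at up to 11.9 FPKM in 7 of the 10 Ang II libraries, all 5 of KO among them. Without KONS_627, 8 transcripts passed the test described next, 7 of them among the 8 that passed with it.

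Of the 1023 members, 599 averaged 1 FPKM or more across both saline groups and were tested; the other 424 had means of 0.00847 to 0.994 FPKM. Differences are KO saline minus WT saline in log2(FPKM + 1), fitted with limma and adjusted over all 599, and they understate the change of transcripts with low values. The test called 8 transcripts at an adjusted p under 0.05 (1.34% of those tested), 6 higher in KO saline (1%) and 2 lower (0.334%). The 6 that rose belong to Oaz1, Mast4, Qsox1, Tprkb, Tmem134 and 0610030E20Rik, and the 2 that fell to Slc39a7 and Stab1. All 8 were protein-coding genes' isoforms, and group means of the 8 differed 5.25-fold (Tmem134) to 24.8-fold (0610030E20Rik). At an unadjusted p under 0.05 there were 131 transcripts (21.9%), 67 higher and 64 lower. Among all 599, 322 differences were positive and 277 negative, with a median of 0.05.

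**Figure D2:**
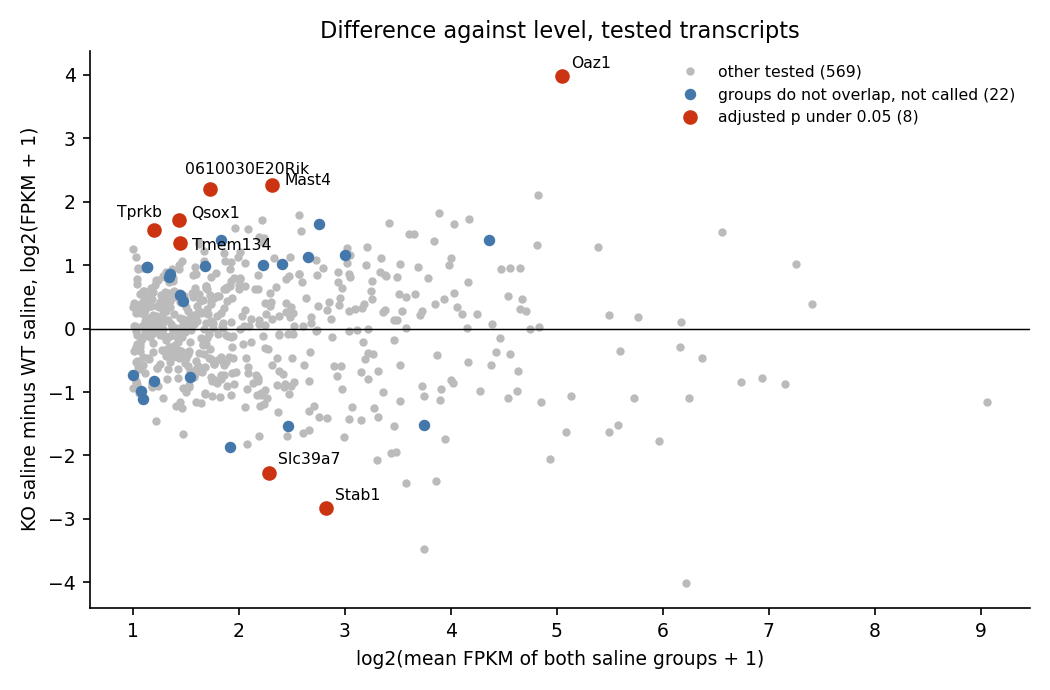
Difference between KO saline and WT saline in log2(FPKM + 1) (vertical axis) against the log2 of the mean FPKM of both groups plus 1 (horizontal axis), 1 point per tested transcript. The 8 called transcripts, 6 above 0 and 2 below, are red and named; blue points are 22 transcripts whose 2 groups do not overlap but which did not pass the adjusted test.

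All libraries of one group lay above all of the other for each of the 8, which in an exact two-sided permutation test of 5 against 5 gives p = 0.00794, the smallest such a design allows. Of the 599 transcripts, 30 had groups that did not overlap (5.01%), 20 with KO saline higher (3.34%) and 10 with it lower (1.67%). Of the 6 that rose, Qsox1, Mast4, Tprkb, Tmem134 and 0610030E20Rik had a WT saline mean under 1 FPKM and passed the filter on low values through KO saline alone. With the filter set on WT saline instead, 589 transcripts were tested and 2 were called, Oaz1 and Slc39a7. In the other alternatives that tested it, 0610030E20Rik was called each time (adjusted p up to 0.0226). With voom on reads worked out from FPKM, Qsox1 stayed called too, while adjusted p was 0.146 for Oaz1, Mast4 and Tprkb, 0.159 for Tmem134 and 0.0736 for Slc39a7.

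The isoform of Oaz1 had the largest difference of the 8. Oaz1 encodes ornithine decarboxylase antizyme 1, which lowers polyamine synthesis and uptake and is made through a programmed ribosomal frameshift that polyamines promote. ENSMUST00000179172 (chromosome 10, 80826693 to 80829005, plus strand, GRCm38) has 6 exons and 744 bases. All of these bases also lie in the Oaz1 isoform ENSMUST00000180036, which has 300 bases that the called isoform lacks. Of these, 8 lie within the span of the called isoform, at the start of an exon where an upstream acceptor site is used. Both stretches are shown, since within that span the junction without those 8 bases sets the called isoform apart from ENSMUST00000180036. Against the isoform ENSMUST00000177850 it has 54 bases of its own. The stretches are from the GENCODE M21 transcripts, chr10:80828604-80828748, plus strand, joined across the intron. Capitals mark the bases that the called isoform lacks.
Oaz1 ENSMUST00000179172: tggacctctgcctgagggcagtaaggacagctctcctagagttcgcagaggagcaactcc
Oaz1 ENSMUST00000180036: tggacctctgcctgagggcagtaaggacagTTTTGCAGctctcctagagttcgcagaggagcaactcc

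The shorter junction form of Oaz1 was listed at 4.45, 11.2, 1.26, 4.23 and 0 FPKM in WT saline and at 73.7, 59.2, 62.2, 40.7 and 64.7 FPKM in KO saline. The lowest KO saline library stood above the highest WT one by more than the whole WT range. The mean went from 4.23 ± 4.36 to 60.1 ± 12.1 FPKM (SD, n = 5 each), a ratio of 14.2, and the difference was 3.98 ± 0.60 (SE; adjusted p = 0.00546). In WT saline this isoform made up 5.67% of the summed Oaz1 transcripts, behind ENSMUST00000177850 at 25.3 FPKM, ENSMUST00000180036 at 19.9 and ENSMUST00000060987 at 18.6. None of those was listed for KO saline, so whether the gene's total rose or its isoforms traded places cannot be told apart here.

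Qsox1 encodes quiescin sulfhydryl oxidase 1, an enzyme of the Golgi and of secreted fluid that puts disulfide bonds into proteins of the extracellular matrix. It has a long form, known to be anchored in the membrane, and a short, secreted one. The called transcript ENSMUST00000035325 (chromosome 1, 155778158 to 155812889, minus strand) reads on through 866 bases that the short form ENSMUST00000194632 removes as its last intron, 546 of them coding. Its coding sequence is 2244 bases against 1704. The stretches below start in the shared exon and show where the forms part; capitals mark bases that the short form lacks. They are on the minus strand of GRCm38 from GENCODE M21, the long one at chr1:155779658-155779747 and the short one joined across the intron within chr1:155778822-155779747.
Qsox1 long form, ENSMUST00000035325: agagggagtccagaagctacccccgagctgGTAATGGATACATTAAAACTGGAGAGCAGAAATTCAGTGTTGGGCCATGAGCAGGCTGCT
Qsox1 short form, ENSMUST00000194632: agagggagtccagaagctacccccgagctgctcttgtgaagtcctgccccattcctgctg

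The long form stood at 0.278, 0.2, 0.253, 0.265 and 0.151 FPKM in WT saline. In KO saline it stood at 3.23, 2.11, 2.84, 2.21 and 5.47 FPKM, so that the lowest KO library was several times the highest WT one. The means were 0.229 ± 0.053 and 3.17 ± 1.37 FPKM (SD, n = 5 each), and the difference 1.71 ± 0.24 (SE; adjusted p = 0.00456). The short form, at 34.8 ± 10.9 FPKM in WT saline, supplied most of the gene's transcripts there, and the long form 0.629%. The short form was not listed for KO saline.

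Mast4 encodes a large serine/threonine kinase that binds microtubules. ENSMUST00000167058 (chromosome 13, 102732491 to 103334460, minus strand) spans 29 exons and 10636 bases, of which 7189 are shared with ENSMUST00000171791. It stood at 2.12, 0.0434, 0.368, 1.38 and 0 FPKM in WT saline and at 8.51, 12.2, 3.92, 5.87 and 5.31 in KO saline. The WT libraries spread widely in proportion, and the KO libraries were all higher. The difference was 2.26 ± 0.40 (SE; adjusted p = 0.0137), from a mean of 0.783 to one of 7.16 FPKM. In a fit of all 20 libraries together it was not called (adjusted p = 0.0645). The KO saline libraries of Mast4 overlapped those of WT Ang II, which stood at 8.95, 1.03, 0.173, 4.02 and 6.5 FPKM.

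Tprkb encodes a subunit of the KEOPS complex, which modifies transfer RNAs that read codons starting with adenosine. ENSMUST00000113751 (chromosome 6, 85915719 to 85927608, plus strand, 692 bases) ends 2674 bases before the main isoform ENSMUST00000067137, has 273 coding bases against 525, and shares 419 bases with it. It stood at 0.0456, 0.207, 0.175, 0.0221 and 0.259 FPKM in WT saline and at 2.49, 3.54, 1.28, 3.15 and 1.81 in KO saline. The difference was 1.56 ± 0.26 (SE; adjusted p = 0.0105). The main isoform is also a member and gave 1.61, 4.62, 4.64, 7.49 and 2.09 FPKM against 0.845, 0.873, 2.32, 6.55 and 7.2. Its groups overlapped throughout (difference -0.32 ± 0.52, adjusted p = 0.716), and the ratio of the 2 isoforms missed the threshold (adjusted p = 0.127).

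Tmem134 encodes a small membrane protein. The called isoform ENSMUST00000151401 (chromosome 19, 4125975 to 4131727, plus strand) is classed as a processed transcript with no coding sequence. Its 801 bases lie wholly within each of 3 other listed Tmem134 transcripts, so junctions and ends alone separate it from them. It stood at 0.867, 0, 0.453, 0.764 and 0.67 FPKM in WT saline and at 3.75, 2.67, 2.59, 3.38 and 2.06 in KO saline. The difference was 1.34 ± 0.25 (SE; adjusted p = 0.0144), and the call was lost without KONS_387 (adjusted p = 0.052). In WT saline the isoform was 2.58% of the gene's summed transcripts.

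The transcript with the smallest adjusted p belongs to 0610030E20Rik, a gene model without a given name that the naming rule passes over and that is named here after its values were seen. ENSMUST00000077783 (chromosome 6, 72347334 to 72353148, plus strand, 4605 bases) stood at 0.25, 0.145, 0.184, 0.213 and 0.107 FPKM in WT saline. In KO saline it stood at 4.58, 4.79, 3.79, 4.29 and 4.85, the narrowest spread of the 6 higher transcripts on the log scale. The difference was 2.21 ± 0.20 (SE; adjusted p = 8.44e-05).

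Slc39a7 encodes the zinc transporter ZIP7, which releases zinc from the endoplasmic reticulum. The coding isoform ENSMUST00000025186 (chromosome 17, 34028269 to 34031620, minus strand) fell. It stood at 10.8, 3.56, 7.69, 5.35 and 7.66 FPKM in WT saline and at 2.16, 0.0831, 0.191, 1.21 and 0.0911 in KO saline. The means were 7.02 ± 2.74 and 0.747 ± 0.922 FPKM (SD, n = 5 each), a 9.39-fold lower level, and the difference was -2.27 ± 0.39 (SE; adjusted p = 0.0117). All but 4 of its 2320 bases are shared with ENSMUST00000170491, an isoform with a retained intron that stood at 19.5 ± 2.52 FPKM in WT saline. Through that intron and a start 28 bases further upstream, ENSMUST00000170491 has 117 bases that the coding isoform lacks. The isoform with the retained intron was not listed for KO saline, and the coding one was 23.8% of the gene's sum in WT saline.

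Stab1 encodes stabilin-1, a scavenger receptor of tissue macrophages and of some endothelium. Its isoform ENSMUST00000159480 (chromosome 14, 31139013 to 31140866, minus strand, 1236 bases) is classed as a retained intron from the end of the gene. It was close to constant in WT saline, at 9.38, 12.6, 9.49, 11.2 and 9.99 FPKM. In KO saline it stood at 8.17 FPKM in KONS_387 and in the other 4 at 0.0928, 0.0463, 0.0108 and 0.011. The difference was -2.83 ± 0.58 (SE; adjusted p = 0.0299), and it missed the threshold in 8 of the 10 fits that left out 1 animal (adjusted p up to 0.114). The full coding isoform ENSMUST00000036618 stood at 3.79, 1.95, 9.89, 1.5 and 1.53 FPKM against 2.14, 4.42, 5.06, 12.1 and 8.01, with overlapping groups (0.73 ± 0.51, adjusted p = 0.409).

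**Figure D3:**
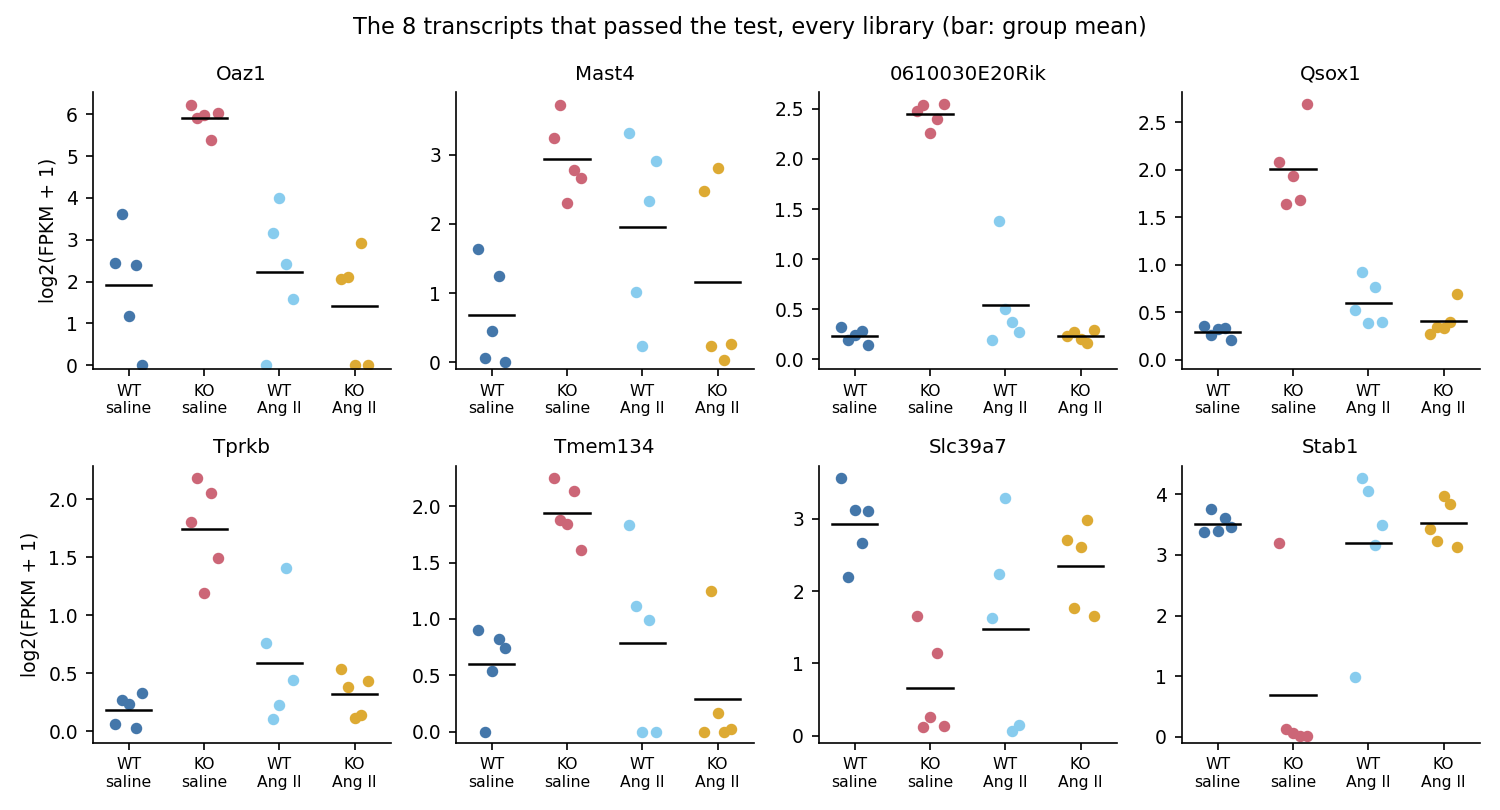
Values of the 8 called transcripts in every library as log2(FPKM + 1) (vertical axes), by group (5 animals each), with a bar at each group mean. KO saline stands above WT saline in the first 6 panels and below it in Slc39a7 and Stab1; KO Ang II lies near WT saline in most panels, and the Stab1 point of KONS_387 sits with the other groups.

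In WT saline Oaz1, Qsox1, Tprkb, Tmem134 and 0610030E20Rik isoforms made up 0.629% to 6.23% of their gene's summed FPKM, a low share that for the last 4 goes with their having passed the filter through KO saline alone. The isoforms of Mast4 (40.9%), Stab1 (37.1%) and Slc39a7 (23.8%) were larger shares. Of the bases of the called isoform, 100% lay in a single other listed transcript for Oaz1, Stab1 and Tmem134, and 99.8% for Slc39a7. The share was 58.1% to 72.7% for 0610030E20Rik, Tprkb, Mast4 and Qsox1.

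**Figure D4:**
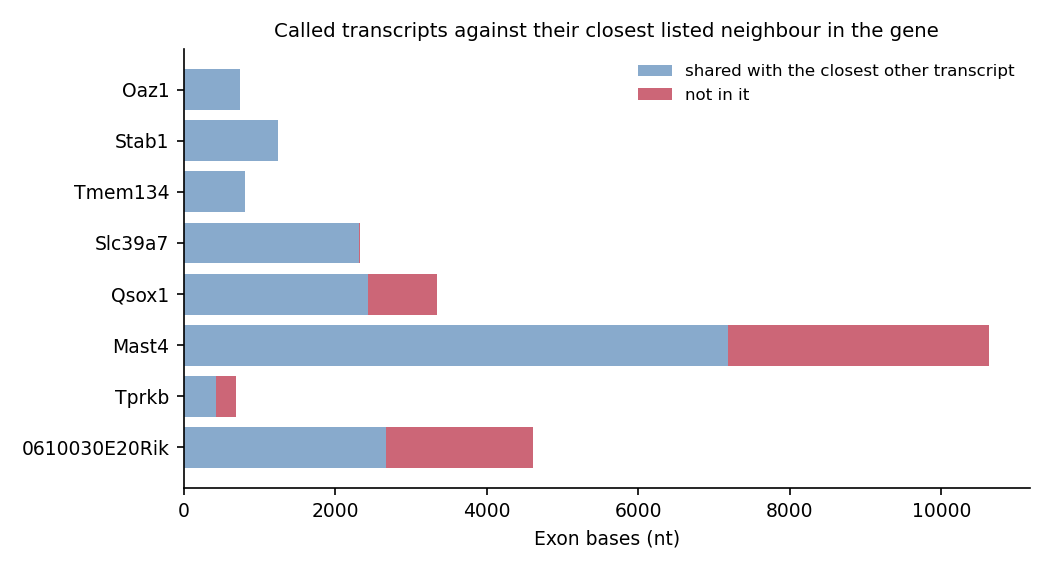
Exon bases (horizontal axis) of each called transcript, split into those shared with the most similar other transcript of its gene listed for WT (blue) and those outside it (red). Oaz1, Stab1 and Tmem134 have no red part and Slc39a7 has 4 bases of it, while Qsox1 has 915 and Mast4 3447.

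A further 22 transcripts had groups that did not overlap but did not pass, 14 higher and 8 lower in KO saline, with adjusted p from 0.105 to 0.296. Examples, chosen after their values were seen, include transcripts of vascular genes. The Ptk2 transcript ENSMUST00000110036, of focal adhesion kinase, stood at 4.11, 2.84, 0.585, 4.99 and 0.618 FPKM in WT saline and at 10.7, 9.997, 8.55, 6.59 and 8.73 in KO saline (1.65, adjusted p = 0.105). The Trpv4 transcript ENSMUST00000071968, of a mechanosensitive calcium channel, stood at 1.41 to 4.77 against 4.97 to 6.56 FPKM (1.01, adjusted p = 0.135). Of its 3228 bases 3223 are shared with ENSMUST00000112225, which averaged 2.82 FPKM in WT saline and was not listed for KO saline. A rise of the gene and a trade between these isoforms cannot be told apart. The Zyx transcript ENSMUST00000203849, of the focal adhesion protein zyxin, stood at 1.68 to 6.57 against 6.84 to 13.8 FPKM (1.17, adjusted p = 0.135). It averaged 4.09 FPKM in WT saline, beside 95.6 for the main isoform ENSMUST00000070635, which was not listed for KO saline. In the other direction, by the naming rule, Cars2 ENSMUST00000210478, from the gene of the mitochondrial cysteine transfer RNA synthetase, stood at 0.998 to 10.1 against 0.0951 to 0.832 FPKM (-1.87, adjusted p = 0.105). It is classed under nonsense-mediated decay. The Cars2 isoform classed as protein coding, ENSMUST00000049461, averaged 1.49 FPKM in WT saline and was not listed for KO saline. Ghitm ENSMUST00000165649, of an inner mitochondrial membrane protein, stood at 7.89 to 28.3 against 4.05 to 7.38 FPKM (-1.53, adjusted p = 0.105). It averaged 19.2 FPKM in WT saline, beside 122 for the main isoform ENSMUST00000042564, which was not listed for KO saline. Tmem129 ENSMUST00000140931 had overlapping groups (-1.22, adjusted p = 0.105).

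Transcripts of energy metabolism had mostly lower means in KO saline, and none passed the test. Of 10 tested transcripts of respiratory chain and ATP synthase genes, all 10 had negative differences, with a median of -1.02 beside 0.05 for all 599. Only 7 of the 10 are not classed as retained introns, so the list does not stand for coding transcripts alone. Unadjusted p was under 0.05 for 4 of the 10, beside 21.9% of all tested transcripts, and adjusted p ran from 0.135 to 0.812. The Atp5h transcript ENSMUST00000137563, from the gene of an ATP synthase subunit, is classed as a processed transcript with no coding sequence. It was the one of the 10 whose groups did not overlap (1.67% of all tested were apart and lower). It stood at 8.17, 15.6, 2.4, 2.25 and 9.53 FPKM in WT saline against 1.4, 0.928, 1.49, 1.94 and 1.63 (-1.53, adjusted p = 0.135). In WT saline it averaged 7.59 FPKM, beside 126 FPKM for the coding isoform ENSMUST00000043931, which was not listed for KO saline. Cox7a1, a cytochrome c oxidase subunit of muscle and brown fat, stood at 102, 182, 32.7, 45.0 and 106 FPKM against 3.49, 22.2, 34.7, 53.8 and 33.0 (-1.77, adjusted p = 0.205).

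Fatty acid and lipid synthesis genes were similar in direction, with 12 of 14 tested transcripts negative, a median of -0.60 and adjusted p from 0.172 to 0.981. The 14 came from 11 genes, and 11 of the 14 are not classed as retained introns. Plin2, the coat protein of lipid droplets, named like Atp5h and Slc2a4 after its values were seen, stood at 121, 161, 78, 53.8 and 101 FPKM in WT saline and at 31.6, 29.2, 68.1, 55.3 and 49.9 in KO saline (-1.10, adjusted p = 0.172). Acadvl, an acyl-CoA dehydrogenase of long chains, averaged 135 against 75.8 FPKM (-0.83, adjusted p = 0.209). Acaa2, the thiolase of mitochondrial beta-oxidation, averaged 155 against 88.1 (-0.78, adjusted p = 0.291). The 3 tested transcripts of mitochondrial import and dynamics genes, which included Mfn2 (mitofusin 2; -1.10, adjusted p = 0.614) and Letmd1 ENSMUST00000037001 (-1.06, adjusted p = 0.22), and 3 of 4 of mitochondrial ribosomal protein genes were negative too. Of the latter, Mrps18c gave -0.76 (adjusted p = 0.22) and Mrps14 -0.32 (adjusted p = 0.743).

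The respiratory chain differences moved with the numbers in the titles, as did those of several lists outside metabolism. The respiratory chain transcripts summed to 249 and 366 FPKM in WTNS_369 and WTNS_373 and to 81.4 to 147 in the other 3. In KO saline they summed to 13.6 and 41.7 FPKM in KONS_387 and KONS_412 and to 76.1 to 96.7 in the other 3. The median difference was -1.41 within the 4 libraries numbered under 500 (10 of 10 negative) and -0.25 within the 6 others (6 of 10 negative). For the fatty acid list it was -0.49 and -0.30, with 11 of 14 negative in each. Outside metabolism it was 0.97 and -0.28 for other matrix genes and 0.80 and -0.12 for chromatin genes. It hardly changed for zinc finger genes (0.31 and 0.33) and solute carriers (0.34 and 0.38). Of 7 brown adipocyte markers, which in WT saline were all listed and summed to 548 to 3078 FPKM, Cox7a1 was the one member. It belongs to the respiratory chain list itself, so brown fat had no value of its own in KO saline to set beside the list. The part of the title number and of adipose tissue in the metabolic differences was not tested. In bulk tissue fewer cells of a type and less RNA per cell cannot be told apart.

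**Figure D5:**
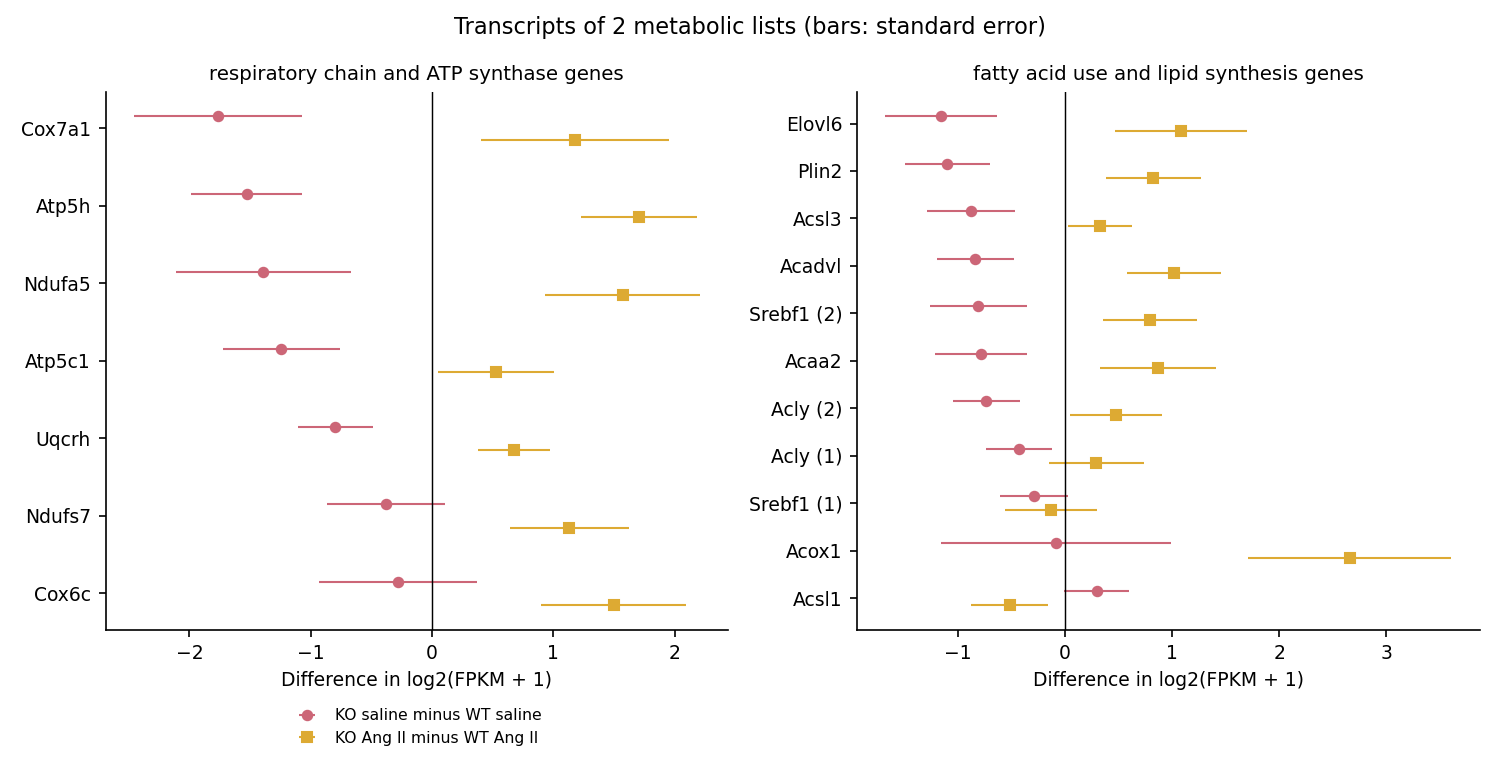
Differences in log2(FPKM + 1) (horizontal axes) for the tested transcripts of 2 gene lists that are not classed as retained introns, KO saline minus WT saline (circles) and KO Ang II minus WT Ang II (squares), with standard errors. The 7 respiratory chain transcripts plotted lie below 0 with saline and above 0 with Ang II, and of 11 in the fatty acid list 10 lie below 0 with saline. None passed the adjusted test in either comparison. Such a change of sign was also frequent among the other transcripts whose saline groups did not overlap.

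Contractile and matrix genes gave no call. The 5 tested transcripts of contractile smooth muscle genes had a median difference of 0.01, 3 positive and 2 negative. Myh11 ENSMUST00000090287, of the smooth muscle myosin heavy chain, averaged 52.7 ± 30.01 against 42.2 ± 29.7 FPKM (SD, n = 5 each; -0.35, adjusted p = 0.739), and a Tpm2 (tropomyosin) transcript without a coding sequence 175 ± 240 against 163 ± 115 (0.39, adjusted p = 0.734). All 3 collagen transcripts were negative (median -0.60), among them Col18a1 ENSMUST00000218407 at 20.2 ± 20.8 against 1.65 ± 2.16 FPKM (-2.43, adjusted p = 0.205) and Col15a1 at -0.15 (adjusted p = 0.975). Of 7 transcripts of other matrix genes, 4 were positive; the Fn1 (fibronectin) isoform with a retained intron ENSMUST00000189160 averaged 112 against 192 FPKM (1.01, adjusted p = 0.453), and Efemp2, an elastic fibre protein, gave 0.39 (adjusted p = 0.723). The 2 tested isoforms of Camk2d, a calcium/calmodulin-dependent kinase, differed by -0.93 (ENSMUST00000200171, adjusted p = 0.424) and 0.48 (ENSMUST00000199300, adjusted p = 0.559).

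Solute carriers were the one gene list with a call, Slc39a7, which fell while the 7 others were positive; 4 of the 8 had an unadjusted p under 0.05. Over all 599 tested, 1.34% were called, 21.9% had such a p and 322 were positive. Slc2a4 ENSMUST00000178809, an isoform with retained intron of the insulin-regulated glucose transporter GLUT4, stood at 6.62, 2.08, 0.9, 0.714 and 1.09 FPKM against 9.89, 7.01, 6.35, 12.6 and 2.84 (1.54, adjusted p = 0.135). Of 12 zinc finger protein transcripts 10 were positive (median 0.31; Zfp410 0.36, adjusted p = 0.521, and Zfp260 -0.57, adjusted p = 0.585), and so were all 4 of nuclear pore and transport genes (median 0.38; Tpr 0.47, adjusted p = 0.425, and Ranbp10 0.04, adjusted p = 0.96). All 5 stress and heat shock transcripts were negative, with a median of -0.48. Hspa8 ENSMUST00000140984, an isoform with a retained intron from the gene of a constitutive chaperone, stood at 62.2, 36.4, 2.4, 0.133 and 22.5 FPKM in WT saline and was listed at 0 in 4 KO saline libraries and 0.248 in KONS_627 (-3.48, adjusted p = 0.106). Hspb1 gave -1.74 (adjusted p = 0.306).

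The remaining lists with 2 or more tested transcripts had medians between -0.24 and 0.46 and members in both directions. In a list with 1 tested transcript, the circadian clock gene Per2 gave 1.13 (adjusted p = 0.208). Among adhesion genes Sptan1 gave -1.51 (adjusted p = 0.265) and the sarcoglycan Sgcd ENSMUST00000077221 0.03 (adjusted p = 0.968). Among splicing and RNA-binding proteins Ddx24 gave 0.28 (adjusted p = 0.679). Rbm39 ENSMUST00000155837, classed under nonsense-mediated decay, gave 0.73 (adjusted p = 0.291). The coding Rbm39 isoform ENSMUST00000109587 went the other way, with means of 8.24 FPKM in WT saline and 0.726 in KO saline. Among ubiquitin and proteasome genes Psmc4 gave -1.43 (adjusted p = 0.138) and Rnf5 1.12 (adjusted p = 0.294). The GTPase regulators Arhgap29 and Arhgef2 gave 1.48 (adjusted p = 0.257) and 0.27 (adjusted p = 0.621), and the traffic genes Golga7 and Sec16a 0.31 (adjusted p = 0.565) and 0.84 (adjusted p = 0.407). Translation factors Eif5 ENSMUST00000166123 and Etf1 gave 0.96 (adjusted p = 0.415) and 0.34 (adjusted p = 0.655). The other tested Eif5 transcripts were negative, at -1.39 and -0.31. The chromatin genes Hdac5 ENSMUST00000107152 and Phf2 gave 0.59 (adjusted p = 0.418) and -1.45 (adjusted p = 0.453). Signalling kinases Map2k2 and Map3k4 gave 0.84 (adjusted p = 0.571) and -0.46 (adjusted p = 0.716). In the growth factor pathway list Tgfb1i1 gave -1.14 (adjusted p = 0.559). Gabpb2, held in that list though it is not a gene of such a pathway, gave 0.48 (adjusted p = 0.384). The chemokine Ccl21a, which is also a lymphatic endothelium marker, gave 0.95 (adjusted p = 0.23) and Il11ra1 0.46 (adjusted p = 0.661). The death and autophagy genes Ripk1 and Atg9a gave 0.29 (adjusted p = 0.701) and 0.42 (adjusted p = 0.45), and the DNA repair genes Parp9 and Mlh3 -0.11 (adjusted p = 0.905) and 0.52 (adjusted p = 0.424).

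For genes with 2 tested transcripts, the ratio of the pair was compared between the groups. There were 37 such pairs; limma called 0 of them (0%), 7 had an unadjusted p under 0.05, and the smallest adjusted p was 0.127. The pairs with the smallest p were those of Stab1, Fkbp8 and Rps26. In Stab1 the isoform with the retained intron changed against the coding one by -3.56 ± 1.01 (SE; adjusted p = 0.127). In Fkbp8, a chaperone of the outer mitochondrial membrane, ENSMUST00000075491 averaged 11.5 against 27.7 FPKM and ENSMUST00000119698 6.09 against 3.03, a change in ratio of 2.43 ± 0.78 (SE; adjusted p = 0.127). In Rps26, a protein of the small ribosomal subunit, the coding transcript ENSMUST00000026420 stood at 113, 155, 126, 53.1 and 98.8 FPKM in WT saline. In KO saline it stood at 0.267, 87.8, 0, 98.8 and 0.02, that is, within the WT range in KONS_412 and KONS_608 and close to 0 in the other 3. Its partner ENSMUST00000219591, with a retained intron, averaged 50.2 against 137 FPKM (1.52, adjusted p = 0.135), and the ratio changed by 5.53 ± 1.78 (SE; adjusted p = 0.127).

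Among the most abundant members, Gpd1 ENSMUST00000023760, the cytosolic glycerol-3-phosphate dehydrogenase that feeds lipid synthesis, had the highest mean, at 665, 1224, 422, 384 and 879 FPKM in WT saline. In KO saline it stood at 102, 184, 505, 564 and 389 FPKM, lowest in KONS_387 and KONS_412, as the respiratory chain transcripts were (-1.16, adjusted p = 0.23). Tkt, the transketolase of the pentose phosphate pathway, gave -0.46 (adjusted p = 0.59), and a Ptms (parathymosin) transcript without a coding sequence gave -0.87 (adjusted p = 0.298).

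With Ang II none of the 8 differed between KO and WT past the threshold. Of the 599 transcripts 587 were listed for every group. Between KO Ang II and WT Ang II limma called 0 of these (0%); 115 reached an unadjusted p under 0.05, and without a filter on low values 19 of 976 were called. The 8 transcripts had adjusted p from 0.327 to 0.727 there. Group means in WT Ang II and KO Ang II were 5.89 and 2.62 FPKM for Oaz1, 0.534 and 0.333 for Qsox1, 2.95 and 4.42 for Slc39a7, and 10.6 and 10.8 for Stab1. The 10 respiratory chain transcripts were all higher in KO Ang II (median 1.15, adjusted p from 0.119 to 0.469). Of the 14 of the fatty acid list 11 were (median 0.40), and the median over the 587 was -0.19. A change of sign was not particular to these lists. Of the 20 transcripts with KO saline higher and groups not overlapping, 2 had a positive difference with Ang II, and of the 10 lower ones 9 did. The listing also held many transcripts far apart between KO saline and KO Ang II.

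The knockout effect differed between infusions by a test of the difference itself in 26 of the 587 transcripts (4.43%), among them the 8 called with saline. These were chosen for their saline difference, which the test subtracts, so that their passing and their sign here largely repeat that choice. For Oaz1 the effect with Ang II minus that with saline was -4.80 ± 1.04 (SE; adjusted p = 0.0151), and for Slc39a7 it was 3.14 ± 0.75 (adjusted p = 0.0311). The Atp5h transcript without a coding sequence had one of 3.24 (adjusted p = 0.0133). Its means were 7.59 and 1.48 FPKM in WT and KO saline and 1.75 and 9.35 in WT and KO Ang II. Since transcripts far apart between KO saline and KO Ang II were so frequent among those listed, and both groups enter this test, its count describes the listed transcripts only.

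By class, 661 of the 1023 members (64.6%) were protein coding and 212 (20.7%) retained introns, against 60.7% and 22.0% of the Ensembl transcripts listed for WT. Of the 430 tested coding transcripts 6 were called, of the 98 retained introns 1 and of the 29 processed transcripts 1, each beside the 1.34% over all. Of the 1021 members found in the annotation, 854 (83.6%) belonged to genes with at least 2 transcripts listed for WT. Spread within groups was wide at this level: the median SD of log2(FPKM + 1) over the tested transcripts was 0.70 in WT saline and 0.52 in KO saline.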

How the data were processed

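The authors deposited FPKM values per transcript, which are not counts; bcl2fastq, FastQC, fastp and the mm10 build are named per the submitters' processing notes. Which aligner and FPKM program were used is not given in the sources used here. Their unit was read from the values: low values are whole multiples of 1 read (97.9% to 99.1% within 0.05 of a whole number, below 50 reads), which gave the depth. Total RNA was extracted with TRIzol and made into NEBNext Ultra libraries, per the labels' protocols. KO saline and WT tables were joined on the Ensembl transcript, with genes and bases from GENCODE M21 (GRCm38).

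Values were compared as log2(FPKM + 1) with limma 3.58.1 (trend and robust options; statmod 1.5.0, R 4.3.3), for means of at least 1 FPKM and with Benjamini-Hochberg adjustment over all tested transcripts, threshold 0.05. Joins and plots used python 3.11.15, pandas 2.3.3, numpy 2.4.6 and matplotlib 3.10.9. The isoform ratio is the difference of both log values within a library. The fit was tested on simulated data. Named transcripts are the called ones with groups that do not overlap, the 5 with the smallest p in a direction with fewer than 5 calls, up to 4 called members or else the 2 most abundant of each gene list, the 8 most abundant, and the 3 isoform pairs with the smallest p; Gm and Rik gene models are passed over. A result that is withheld is not reported here. Others are said to be chosen after their values were seen. Alternatives changed the pseudocount, filter, scaling, fit and libraries. Members and lists were chosen with earlier results of these data known. Nothing in the labels says how the animals were bred or handled together, so p-values measure the spread between these animals only.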

Additional observations from a re-analysis of the deposited data

Results flagged for a closer look

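For 9 named transcripts the knockout effect differed between infusions by the interaction test of limma on 4 groups of 5 libraries. The effect with Ang II minus that with saline was -4.80 for Oaz1, -3.06 for Mast4, -1.90 for Qsox1, -1.82 for Tprkb, -1.84 for Tmem134 and -2.52 for 0610030E20Rik. It was 3.16 for Stab1, 3.14 for Slc39a7 and 2.33 for Cars2 (adjusted p from 1.42e-05 for 0610030E20Rik to 0.0495 for Mast4). These transcripts were named for their saline difference, which the interaction subtracts, so that its sign follows from that choice. Their calls, and the lasting of a call when a library is left out, largely repeat that choice and are no separate support. Qsox1, Mast4, Tprkb, Tmem134 and 0610030E20Rik had also passed the filter on low values through KO saline alone. With 1 of the 20 libraries left out, the call was lost for Mast4 in 15 fits (adjusted p up to 0.0778), Stab1 in 13 (0.0717), Cars2 in 11 (0.0621), Tmem134 in 6 (0.0607) and Slc39a7 in 2 (0.0506), and in none for Oaz1, Qsox1, Tprkb and 0610030E20Rik.

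In 130 groups of 5 libraries, 17 had a single library far from the other 4 by Dixon's test on log2(FPKM + 1). By chance that test marks about 1 in 20 groups. Values below are in FPKM. In KO saline, KONS_387 stood apart for Stab1 ENSMUST00000159480 (8.17 FPKM, others 0.0108 to 0.0928) and for both isoforms of Camk2d: ENSMUST00000199300 at 0.679 (others 3.26 to 4.58) and ENSMUST00000200171 at 4.68 (others 0 to 0.00266). KONS_412 stood apart for Phf2 at 19.4 (others 0.0267 to 0.724) and Tgfb1i1 at 1.14 (others 0.0518 to 0.106). KONS_555 was low for Fn1 at 29.7 (others 196 to 304). KONS_608 was low for Arhgap29 at 2.76 (others 16.1 to 21.2) and high for Zfp260 at 13.2 (others 1.74 to 1.86). KONS_627, the library with intestinal transcripts, was low for Efemp2 at 4.62 (others 8.13 to 9.65), high for Rbm39 at 14.1 (others 6.30 to 7.66) and the one library above 0 for Hspa8 at 0.248. With the other 4 at 0, any value above 0 passes that test, so the rate of 1 in 20 does not apply to Hspa8.

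In WT saline, WTNS_523 stood apart for Tgfb1i1 at 102.8 FPKM (others 0.0151 to 0.300), Ddx24 at 8.62 (others 26.8 to 28.6) and Sptan1 at 23.1 (others 60.4 to 74.3). WTNS_547 was high for Tpm2 at 603.8 (others 56.9 to 81.0). WTNS_550 was listed at 0 for Rnf5 (others 5.56 to 10.6) and stood at 0.818 for Hspb1 (others 15.6 to 35.8).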

How the results depend on the processing

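No paired analysis was possible because the groups share no animal number. The count of 8 calls became 3 with a pseudocount of 0.1 FPKM (Qsox1, Tprkb and 0610030E20Rik), 1 of 171 with means of at least 5 FPKM (Oaz1), 2 with voom on reads worked out from FPKM (Qsox1 and 0610030E20Rik), and 2 with the filter set on WT saline, an alternative chosen after seeing the data. Leaving out 1 library gave 7 to 14 calls, the most without WTNS_523. The remaining settings gave 6 to 11, the 6 without the 4 libraries numbered under 500, where Qsox1, Mast4, Tprkb and Tmem134 lost the call (adjusted p from 0.121 to 0.253). With Ang II the count of 0 became 19 without a filter, and 0 to 2 with 1 library left out. The interaction count of 26 became 8 with a pseudocount of 0.1 FPKM and ranged from 7 (without WTAng_II519) to 104 (without WTAng_II580). The isoform ratio gave 0 calls, or 1 (Stab1) without KONS_387. The transcripts named next changed sign in a setting, and none of them was called. With sample quality weights Col15a1 gave 0.22 and Parp9 0.037. With voom Map2k2 gave -2.39, Map3k4 0.075 and Parp9 0.0055. Without the libraries numbered under 500, Fn1 gave -0.18, Efemp2 -0.49, Acaa2 0.014, Mrps14 0.28, Hdac5 -0.12, Sgcd -0.19 and Tkt 0.087. With 1 library left out, values ran from -1.01 to 0.74 for Col15a1, -0.27 to 0.77 for Efemp2, -0.66 to 0.11 for Mrps14, -0.036 to 0.37 for Ddx24, -1.50 to 0.17 for Tgfb1i1, -0.066 to 0.11 for Sgcd, -0.00013 to 0.69 for Il11ra1, -0.075 to 0.48 for Ripk1, -0.44 to 0.15 for Parp9 and -0.063 to 0.13 for Ranbp10. The median of the respiratory chain list was -1.67 with voom. The cause of these changes was not tested. WT saline means were well under 1 FPKM for Qsox1, Tprkb and 0610030E20Rik. The reads behind such a value also depend on transcript length, which is 3348 bases for Qsox1, 692 for Tprkb and 4605 for 0610030E20Rik.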

Other observations

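Other transcripts whose saline groups did not overlap, named after their values were seen, included Adamts14, of a procollagen N-proteinase, at 0.0736 to 1.76 FPKM in WT saline and 2.36 to 8.69 in KO saline (1.40, adjusted p = 0.105 by limma). The Mt1 transcript ENSMUST00000212291, of the metal-binding protein metallothionein 1, stood at 1.46 to 3.42 against 0.823 to 1.38 FPKM (-0.77, adjusted p = 0.138). It averaged 2.7 FPKM in WT saline, beside 432 for the main isoform ENSMUST00000034215, which was not listed for KO saline. The Mecr transcript ENSMUST00000137321, of an enzyme of mitochondrial fatty acid synthesis, stood at 0.76 to 5.33 against 0.169 to 0.468 FPKM (-0.98, adjusted p = 0.179). The main Mecr isoform ENSMUST00000030742, also a member, averaged 19.95 FPKM in WT saline and 10.5 in KO saline. A transcript of Dedd, a death effector domain protein, stood at 1.37 to 2.95 FPKM in WT saline, and in KO saline was listed at 0 in 3 libraries and at 0.638 and 1.34 FPKM in the others (-1.11, adjusted p = 0.125). None of these passed the adjusted test.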
